A study of Homo sapiens with 8 samples.

Results

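GDF15 and 9 genes of the amino acid stress response, ATF4, DDIT3, TRIB3, ASNS, CHAC1, SESN2, PSAT1, PHGDH and SHMT2, were followed in TGF-β-stimulated lung adenocarcinoma cells. They were found by gene symbol, 10 of the 30017 symbols in the tables, and each had a single record. The list was chosen by measured values: GDF15 had been seen to be lower with TGF-β in these same libraries. The levels of GDF15 with and without TGF-β are therefore given as a description, while the other 9 genes, and GDF15 between the cell lines, were tested.

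RNA was sequenced in 8 libraries, 2 for each of 4 groups. All came from A549-S3KO cells, made by disrupting the SMAD3 gene in a cloned parental line of A549 human lung adenocarcinoma cells, and all carried a Smad3 cDNA brought in by lentivirus. The cDNA encoded Smad3 with the substitutions R104K and A105P, called Smad3(RA/KP), or wild-type Smad3. Cells were detached, plated on collagen and given TGF-β at 1 ng/ml for 8 h at the time of plating, or left unstimulated. The infected cells had been cloned by limiting dilution and several clones were in use in the study; for wild-type Smad3, the clone that expressed the least of the introduced Smad3 was picked. The sources used here do not name the sequenced clones, so an effect of the substitutions and a difference between clones cannot be told apart.

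ATF4 is the transcription factor of the integrated stress response. Kinases that sense amino acid shortage, unfolded protein, haem deficiency or viral RNA phosphorylate the translation factor eIF2, which slows protein synthesis in general and favours translation of ATF4. ATF4 in turn drives genes for amino acid synthesis and uptake, tRNA charging and stress signalling, and GDF15, a secreted cytokine of the TGF-β superfamily that acts on the hindbrain receptor GFRAL to reduce appetite, is among its known targets. Because ATF4 is controlled in large part by translation, its mRNA level is not a measure of its activity.

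The promoters of the 4 members whose levels the results turn on or that carry an ATF4-type motif are shown, as the 250 bases before the RefSeq start on GRCh38.p14, written 5′ to 3′ on the strand of the gene. Capitals mark matches to 2 motifs searched on both strands of the full windows, which reach 50 bases past the start. One was TGATGNAA, the composite element bound by ATF4 together with C/EBP proteins, and the other was CAGAC, which holds the Smad-binding sequence. The windows lay at chr19:18385908-18386157 (plus strand) for GDF15, chr7:97872409-97872658 (minus strand) for ASNS, chr15:40953221-40953470 (plus strand) for CHAC1 and chr1:28259268-28259517 (plus strand) for SESN2.
GDF15: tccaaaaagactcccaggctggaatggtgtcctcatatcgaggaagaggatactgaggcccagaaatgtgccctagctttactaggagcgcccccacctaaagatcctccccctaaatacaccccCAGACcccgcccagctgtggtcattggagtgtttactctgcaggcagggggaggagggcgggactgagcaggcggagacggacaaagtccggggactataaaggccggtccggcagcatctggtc
ASNS: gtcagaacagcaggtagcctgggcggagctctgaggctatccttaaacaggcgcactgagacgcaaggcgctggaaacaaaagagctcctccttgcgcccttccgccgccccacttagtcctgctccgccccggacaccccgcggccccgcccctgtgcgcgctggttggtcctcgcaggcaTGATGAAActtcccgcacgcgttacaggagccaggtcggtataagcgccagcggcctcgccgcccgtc
CHAC1: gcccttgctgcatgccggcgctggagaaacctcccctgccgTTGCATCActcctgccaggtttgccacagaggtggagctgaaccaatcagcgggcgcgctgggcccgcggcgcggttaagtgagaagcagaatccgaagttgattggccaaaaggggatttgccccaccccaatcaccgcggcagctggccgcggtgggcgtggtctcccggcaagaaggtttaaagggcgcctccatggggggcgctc
SESN2: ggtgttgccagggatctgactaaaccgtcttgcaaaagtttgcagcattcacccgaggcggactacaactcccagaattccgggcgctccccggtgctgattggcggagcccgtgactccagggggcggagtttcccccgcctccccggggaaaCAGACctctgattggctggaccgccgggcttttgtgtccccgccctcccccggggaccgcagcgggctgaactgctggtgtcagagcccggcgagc
In the GDF15 window CAGAC began 125 bases before the start and TGATGNAA was not among its letters. The ASNS window held TGATGAAA, 68 bases before the start. In the CHAC1 window the match, TGATGCAA, lay on the opposite strand and its capitals read TTGCATCA, 209 bases before the start. CAGAC began 96 bases before the SESN2 start. Windows were found for 9 of the 10 members, all but SHMT2, and numbered 14 because some genes have several starts. TGATGNAA was in a window of 2 members and in 3.62% of all 35116 windows, and CAGAC in a window of 6 members and in 45.3% of all windows. The member counts take any window of a gene and the percentages take single windows, so they are not on the same base. The second ASNS window, not shown, held CAGAC 70 bases before its start and no TGATGNAA. The gene positions given below for ASNS, CHAC1 and SESN2 reach into these windows, so the distances refer to the RefSeq starts alone. A match is a description of the letters and no measure of binding.

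The libraries held 1.15 to 1.81 Gb of mapped bases, and 12773 to 13281 symbols reached 1 TPM in each, a length-normalized level scaled to the same total in every library. The tables give no read counts. SMAD3 lay at 137 to 187 TPM, and transcripts of the lentiviral cDNA and of the edited locus are counted together in it. TGF-β raised 6 of 7 known TGF-β targets in Smad3(RA/KP) cells and all 7 in wild-type Smad3 cells, with a median change of 1.68 on the log2 scale in Smad3(RA/KP) cells and 1.71 in wild-type Smad3 cells. Of the epithelial markers, KRT8 lay at 4235 TPM or more, EPCAM and CDH1 lay at 1.40 to 10.3 TPM, and KRT19 was listed at 0 in all 8 libraries. All 5 markers of lung lineage lay below 1 TPM in every library. Of 9 markers of leukocytes, endothelium and fibroblasts, 7 lay below 1 TPM in every library. The other 2 were CD68, at 51.0 TPM or more, and LUM, at 0.33 to 5.19 TPM. The pair of untreated Smad3(RA/KP) libraries stood apart: the difference between them ran with the GC content of the transcripts at a Spearman correlation of −0.585 across genes, while the same correlation was 0.101 to 0.224 for the remaining 3 pairs. Genes within a library are not independent of each other. Transcripts of GDF15 have 64.1% GC and those of PSAT1 42.5%.

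GDF15 was lower with TGF-β in both lines and in every pair of libraries. Treated Smad3(RA/KP) cells had 25.4 and 38.2 TPM in replicates 1 and 2, and untreated ones 161 and 94.1 TPM. Treated wild-type Smad3 cells had 25.9 and 24.3 TPM, and untreated ones 142 and 151 TPM. All 4 treated libraries were therefore below all 4 untreated ones, and the highest treated and the lowest untreated value were both in replicate 2 of the Smad3(RA/KP) line. The group means were 31.8 ± 9.07 and 128 ± 47.4 TPM with and without TGF-β in Smad3(RA/KP) cells, and 25.1 ± 1.12 and 146 ± 6.32 TPM in wild-type Smad3 cells (SD, n = 2 each). On the log2(TPM + 1) scale, used for all fold changes here, GDF15 changed by −1.95 in Smad3(RA/KP) cells and by −2.50 in wild-type Smad3 cells. Among the 13141 genes whose TPM averaged 1 or more, these were the 27th and the 5th lowest values of their comparisons. The change in Smad3(RA/KP) cells ranged between −1.47 and −2.43 when 1 library at a time was left out, and was −2.18 with the GC trend removed from each library. GDF15 is on chr19:18386158-18389176 (plus strand), and its mean coverage per base in the libraries was 17.3 to 125. In these bulk samples, fewer cells that express a gene and less of its RNA per cell cannot be told apart.

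**Figure D1:**
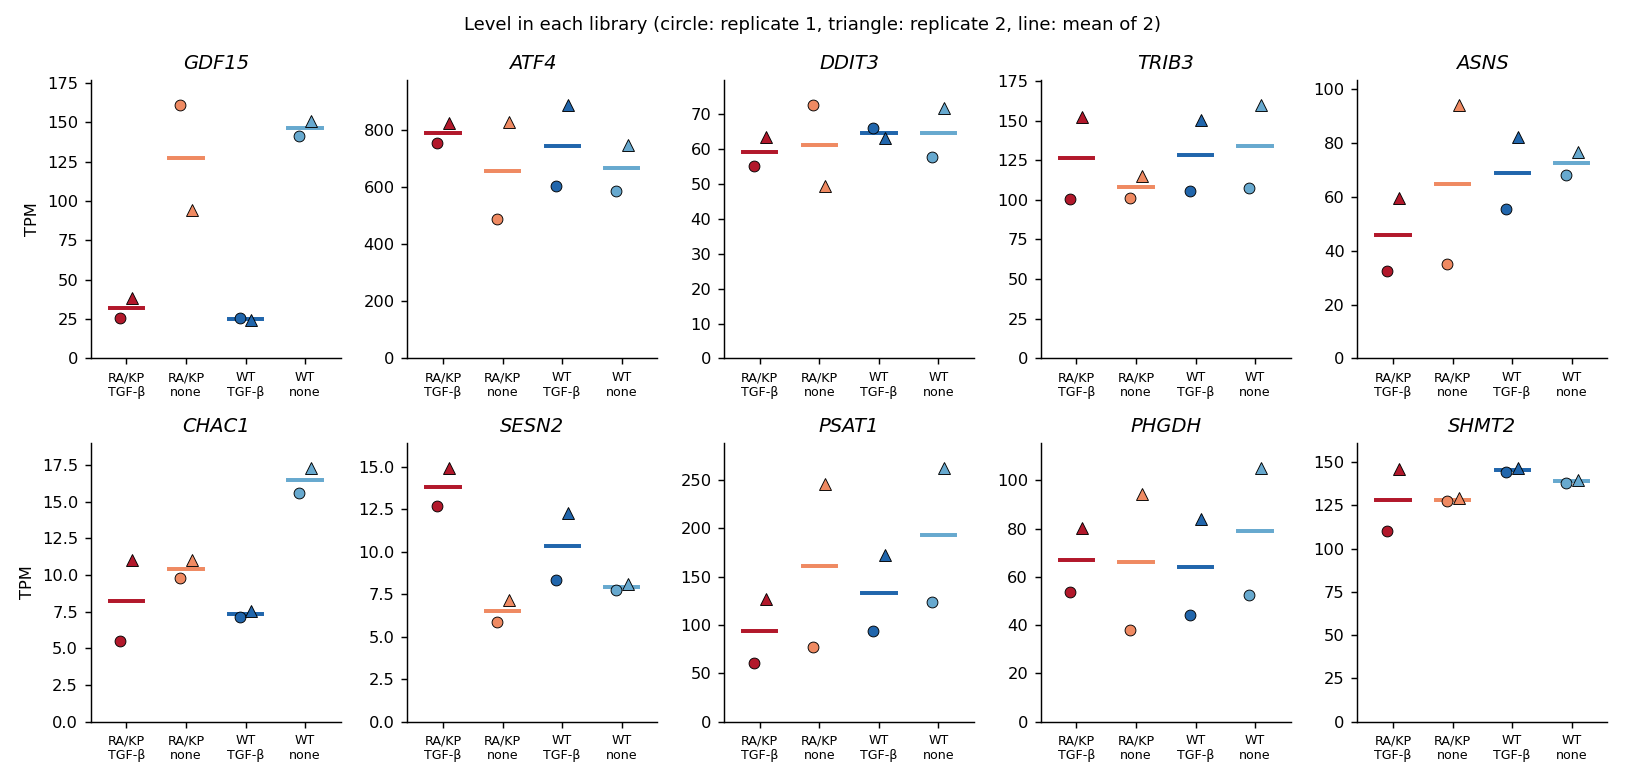
Level of each of the 10 genes in TPM (vertical axes, each from 0) in the 8 libraries, by Smad3 form and TGF-β. Circles are replicate 1, triangles replicate 2 and lines the mean of 2; GDF15 shows the treated libraries at 24.3 to 38.2 TPM, below all untreated ones, while ATF4, TRIB3 and DDIT3 show treated and untreated libraries intermixed.

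Of the other 9 genes, most did not pass the test. By limma with Benjamini-Hochberg adjustment over all 13141 genes, 1 of 9 changed in Smad3(RA/KP) cells (SESN2, higher) and 1 of 9 in wild-type Smad3 cells (CHAC1, lower). In each line 2 of the 9 had an unadjusted p under 0.05. The share over all genes tested was 21.9% in Smad3(RA/KP) cells and 16.5% in wild-type Smad3 cells. Over all genes tested, TGF-β raised 3.49% and lowered 1.5% in Smad3(RA/KP) cells, 4.98% in all. The shares were 2.94% higher and 1.74% lower in wild-type Smad3 cells, 4.68% in all. The median change of the 9 genes was −0.02 in Smad3(RA/KP) cells, beside −0.10 for all genes tested, and −0.06 in wild-type Smad3 cells, beside −0.06 for all genes tested.

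**Figure D2:**
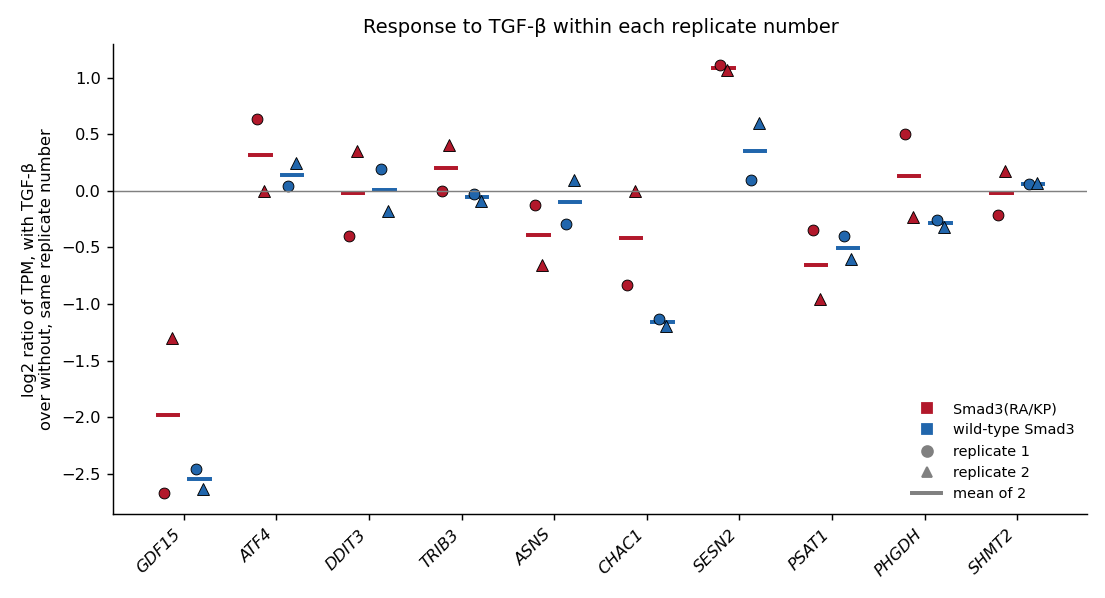
Log2 ratio of TPM with over without TGF-β (vertical axis) for each gene, within each replicate number, in Smad3(RA/KP) cells (red) and wild-type Smad3 cells (blue); lines are the mean of 2 ratios. GDF15 lies below −1 in all 4 pairs, CHAC1 below −1 in both wild-type pairs, and SESN2 above 1 in both Smad3(RA/KP) pairs.

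The transcription factors did not pass the test in either line. ATF4 (chr22:39520564-39522686, plus strand), the factor at the head of the pathway, was the most abundant of the 10 genes, at a mean of 715 TPM over the 8 libraries. It lay at 756 and 823 TPM with TGF-β and 488 and 827 TPM without in Smad3(RA/KP) cells. In wild-type Smad3 cells it lay at 603 and 887 TPM with TGF-β and 587 and 748 TPM without. Treated and untreated libraries overlapped in both lines, and the changes were 0.31 (limma adjusted p = 0.342) and 0.14 (adjusted p = 0.804) in Smad3(RA/KP) and wild-type Smad3 cells. DDIT3 (chr12:57516588-57520517, minus strand) encodes CHOP, a C/EBP family factor that ATF4 induces under lasting stress. It lay at 55.0 and 63.3 TPM with TGF-β and 72.6 and 49.6 TPM without in Smad3(RA/KP) cells. The wild-type line had 66.0 and 63.3 TPM with TGF-β and 57.6 and 71.7 TPM without. These values overlapped, and the change of DDIT3 was −0.02 (limma adjusted p = 0.960) in Smad3(RA/KP) cells and 0.0074 (adjusted p = 0.994) in wild-type Smad3 cells.

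TRIB3 and SESN2 encode regulators of kinase signalling. TRIB3 (chr20:380664-397559, plus strand), a pseudokinase that restrains ATF4 and AKT, lay at 101 and 152 TPM with TGF-β and 101 and 115 TPM without in Smad3(RA/KP) cells. With wild-type Smad3 it lay at 106 and 150.3 TPM with TGF-β and 108 and 159.7 TPM without. Its groups overlapped, and it did not pass the test at 0.20 (limma adjusted p = 0.50) in Smad3(RA/KP) cells or −0.06 (adjusted p = 0.934) in wild-type Smad3 cells. SESN2 (chr1:28259452-28282491, plus strand), a leucine sensor that holds back the growth kinase complex mTORC1, was the only one of the 9 genes that passed as higher in either line. It lay at 12.7 and 14.9 TPM with TGF-β and 5.88 and 7.14 TPM without in Smad3(RA/KP) cells, 2.15 and 2.09 times as high in replicates 1 and 2. In wild-type Smad3 cells it lay at 8.33 and 12.3 TPM with TGF-β and 7.77 and 8.14 TPM without. The groups did not overlap in either line. SESN2 rose by 0.98 in Smad3(RA/KP) cells (SE 0.21) with a limma adjusted p of 0.0351, the 475th highest change of 13141, and the change in wild-type Smad3 cells was 0.32 (SE 0.21, adjusted p = 0.561). The call in Smad3(RA/KP) cells was lost without any 1 of 7 of the 8 libraries (adjusted p 0.0676 to 0.180), all but replicate 1 of the untreated Smad3(RA/KP) cells, and without the replicate number as a block (adjusted p = 0.0955). Over all the alternatives its adjusted p ranged from 0.0177 to 0.189.

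CHAC1 (chr15:40953438-40956519, plus strand), an enzyme that breaks down glutathione, was the member nearest to GDF15 in direction. It lay at 5.48 and 10.996 TPM with TGF-β and 9.78 and 11.04 TPM without in Smad3(RA/KP) cells. Wild-type Smad3 cells had 7.13 and 7.54 TPM when treated and 15.6 and 17.3 TPM when untreated. The wild-type groups were well apart, while in the Smad3(RA/KP) line replicate 2 hardly differed and replicate 1 was lower with TGF-β. The change of CHAC1 in Smad3(RA/KP) cells was −0.37 (SE 0.25, limma adjusted p = 0.415). In the wild-type line it fell by 1.06 (SE 0.25), with an adjusted p of 0.0490, the 297th lowest change of 13141. CHAC1 had a coverage of 3.75 to 14.3 per base, and the call in wild-type Smad3 cells was lost without any 1 of the 4 wild-type libraries (adjusted p 0.214 to 0.413) and without the replicate block (adjusted p = 0.129). Under all the alternatives its adjusted p ranged from 0.0224 to 0.413.

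ASNS, PSAT1, PHGDH and SHMT2 encode enzymes of amino acid synthesis, and none passed the test in either line with all libraries. ASNS (chr7:97852117-97872542, minus strand), which makes asparagine, lay at 32.3 and 59.5 TPM with TGF-β and 35.1 and 94.1 TPM without in Smad3(RA/KP) cells. Wild-type Smad3 cells had 55.4 and 82.0 TPM with TGF-β and 68.1 and 76.7 TPM without. The libraries numbered 2 were the higher ones in each group, and treated and untreated values overlapped in both lines. The change of ASNS was −0.38 (limma adjusted p = 0.413) in Smad3(RA/KP) cells and −0.10 (adjusted p = 0.928) in wild-type Smad3 cells.

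PSAT1 (chr9:78297075-78330093, plus strand), the aminotransferase of the serine pathway, was lower with TGF-β in both pairs of both lines. It lay at 60.5 and 127 TPM with TGF-β and 77.0 and 246 TPM without in Smad3(RA/KP) cells. The wild-type line had 93.8 and 172 TPM with TGF-β and 124 and 262 TPM without. Within a replicate number the treated library was the lower one each time, but the groups overlapped because the libraries numbered 1 and 2 were far apart. The change was −0.65 (SE 0.20, limma adjusted p = 0.111) in Smad3(RA/KP) cells and −0.50 (SE 0.20, adjusted p = 0.253) in wild-type Smad3 cells, with unadjusted p of 0.0108 and 0.0357 from the same limma fit. Without replicate 1 of the untreated Smad3(RA/KP) cells, PSAT1 passed in Smad3(RA/KP) cells at −0.98 (limma adjusted p = 0.0111) and in wild-type Smad3 cells at −0.50 (adjusted p = 0.0465). Without that library ASNS also passed in Smad3(RA/KP) cells, at −0.82 (adjusted p = 0.0443), so that 3 members passed in Smad3(RA/KP) cells and 2 in wild-type Smad3 cells.

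PHGDH (chr1:119711796-119744226, plus strand) catalyses the first step from glycolysis to serine. It lay at 53.7 and 80.2 TPM with TGF-β and 38.0 and 94.1 TPM without in Smad3(RA/KP) cells. Wild-type Smad3 cells had 44.2 and 84.1 TPM with TGF-β and 52.7 and 104.9 TPM without. Treated and untreated libraries overlapped in both lines, and PHGDH did not pass at 0.13 (limma adjusted p = 0.715) in Smad3(RA/KP) cells or −0.28 (adjusted p = 0.566) in wild-type Smad3 cells. SHMT2 (chr12:57229573-57234935, plus strand), which converts serine to glycine in mitochondria, varied least. It lay at 109.9 and 146 TPM with TGF-β and 127 and 129 TPM without in Smad3(RA/KP) cells. The wild-type line had 144 and 146 TPM with TGF-β and 138 and 139.8 TPM without. The wild-type groups were apart by a few TPM only, and the change of SHMT2 was −0.02 (adjusted p = 0.960) in Smad3(RA/KP) cells and 0.06 (adjusted p = 0.926) in wild-type Smad3 cells.

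Whether the 2 forms of Smad3 differed in the TGF-β effect was tested as a difference of changes, Smad3(RA/KP) minus wild type, in the same fit. None of the 10 genes passed, and none had an unadjusted p under 0.05. Of all genes tested 3 passed (0.0228%), and 564 had an unadjusted p under 0.05. For GDF15 the difference was 0.55 (SE 0.39, 95% interval −0.33 to 1.42, limma adjusted p = 0.881), which leaves a difference above 1.42 on the log2 scale outside the interval. For CHAC1 it was 0.69 (95% interval −0.11 to 1.50) and for SESN2 0.66 (95% interval −0.02 to 1.35), both with a limma adjusted p of 0.881. CHAC1 passed in the wild-type line alone and SESN2 in the Smad3(RA/KP) line alone, but neither response was shown to differ between the lines. The differences of the other 7 genes ran from −0.29 for ASNS to 0.41 for PHGDH. These comparisons share libraries with both TGF-β comparisons.

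Between the lines, no member passed in either condition. In untreated cells all 10 genes were lower in Smad3(RA/KP) than in wild-type Smad3 cells by the fit, by −0.06 (ATF4) to −0.61 (CHAC1), with a median of −0.27 beside 0.03 for all genes tested. The limma adjusted p was 1 for each of them, and CHAC1 alone had an unadjusted p under 0.05, at 0.0380. Of all genes tested 2 passed there (0.0152%), and 329 had an unadjusted p under 0.05. The 10 differences come from the same untreated libraries, whose Smad3(RA/KP) pair differed along GC content, and are not independent of each other. The share of all genes that were lower was not counted, by the fit or within replicate numbers. Within replicate numbers 6 of the 10 genes were lower in Smad3(RA/KP) cells both times and 4 were mixed. GDF15 was one of the mixed genes, at 161 against 142 TPM in replicate 1 and 94.1 against 151 TPM in replicate 2 of untreated Smad3(RA/KP) and wild-type Smad3 cells, a fitted difference of −0.25 (95% interval −0.86 to 0.37).

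In treated cells the fit placed 5 of the 10 genes above and 5 below the wild-type line, with a median of 0.03 beside 0.0035 for all genes tested, of which 1 passed (0.00761%) and 973 had an unadjusted p under 0.05. GDF15 differed by 0.30 (95% interval −0.32 to 0.92, limma adjusted p = 0.802). ASNS was at −0.61 (unadjusted p = 0.0450, adjusted p = 0.668) and PSAT1 at −0.53 (unadjusted p = 0.0272, adjusted p = 0.658) by limma. Both were lower in Smad3(RA/KP) cells in replicates 1 and 2. SESN2 was higher in Smad3(RA/KP) cells in both replicates, at 12.7 against 8.33 TPM and 14.9 against 12.3 TPM, a difference of 0.40 (adjusted p = 0.711).

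By the fitted values, several of the 9 genes differed more between replicate numbers than with TGF-β. This comparison was added after their levels were seen. The study describes 2 independent experiments, and the number may mark the experiment, which is an assumption. PSAT1 was higher in the libraries numbered 2 in all 4 groups, by 1.17 on the log2 scale (SE 0.14, limma adjusted p = 0.0136), and PHGDH by 0.94 (SE 0.14, adjusted p = 0.0195). These were 2 of the 10 genes, and 0.517% of all genes tested were higher and 0.548% lower in the libraries numbered 2. ASNS followed at 0.75 (adjusted p = 0.0884), TRIB3 at 0.46 (adjusted p = 0.0912) and ATF4 at 0.45 (adjusted p = 0.123). All 3 were higher in the libraries numbered 2 in each group and had an unadjusted p under 0.05, but did not pass. GDF15 did not follow them, at −0.05 (adjusted p = 0.926), nor did DDIT3, at −0.02 (adjusted p = 0.958).

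The untreated Smad3(RA/KP) pair had the widest gap for PSAT1, PHGDH, ASNS and ATF4, but PSAT1 remained at 1.00 without either of its libraries (adjusted p = 0.0150 and 0.0196). PSAT1 lost its call without replicate 1 or 2 of treated wild-type Smad3 cells (adjusted p = 0.0640 and 0.0662). PHGDH lost it without any 1 of the 4 wild-type libraries (adjusted p 0.0583 to 0.155). Of the 11 further genes tested from a list of serine, one-carbon and proline synthesis and linked enzymes, 3 were higher in the libraries numbered 2 and 0 lower. CBS, of cysteine synthesis, was higher by 1.07, GPT2, an alanine aminotransferase, by 0.99 and PCK2, mitochondrial PEP carboxykinase, by 0.86. SHMT1, the cytosolic counterpart of SHMT2, was at −0.23 (limma adjusted p = 0.343), the 1 gene of the 11 below 0. Other lists lay above 0 as broadly: 17 of 17 genes of the endoplasmic reticulum stress list were above 0, of which 1 passed, and 19 of 20 cytosolic aminoacyl-tRNA synthetases, of which 0 passed and 10 had an unadjusted p under 0.05. Over all genes tested the median of this comparison was 0.07, and 17.6% had an unadjusted p under 0.05. The share of all genes above 0 was not counted.

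**Figure D3:**
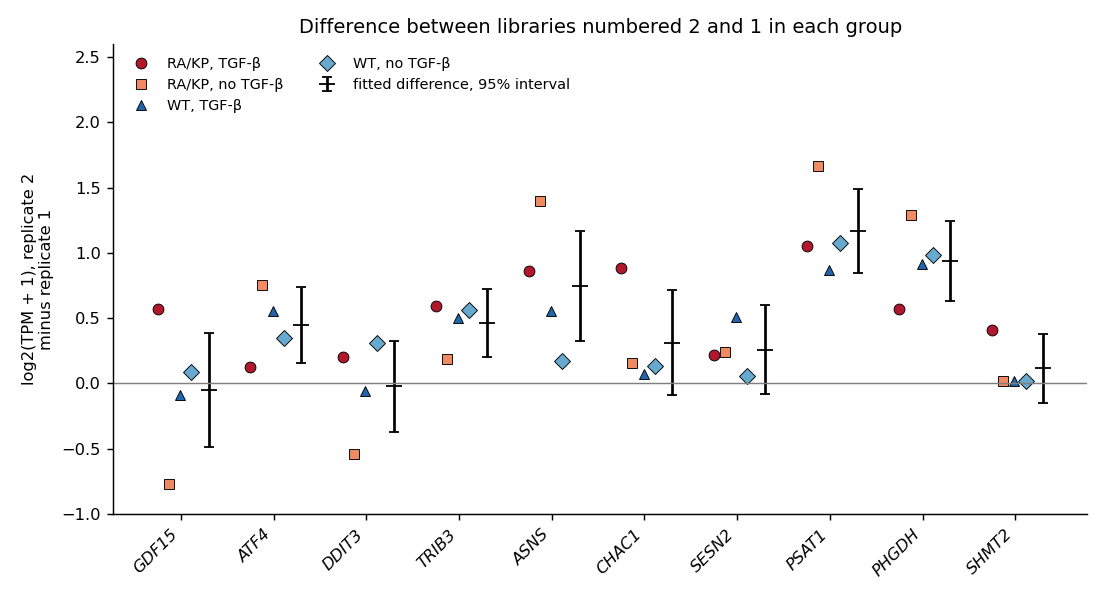
Difference in log2(TPM + 1) between the libraries numbered 2 and 1 (vertical axis) for each gene in each of the 4 groups, with the fitted difference and its 95% interval in black. PSAT1 and PHGDH lie above 0 in every group, with fitted differences of 1.17 and 0.94, while GDF15 and DDIT3 lie on both sides of 0.

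Genes further along the pathway were read from lists written by function. The counts of unadjusted p under 0.05 stand beside 21.9% of all genes tested in Smad3(RA/KP) cells and 16.5% in wild-type Smad3 cells. Among the transcription factors of the integrated stress response (ISR), 0 of 6 genes passed by limma in either line, and 2 had an unadjusted p under 0.05 in each. JDP2, a repressor of the AP-1 family, was at 0.86 (limma adjusted p = 0.0556) in Smad3(RA/KP) cells and 0.70 (adjusted p = 0.113) in wild-type Smad3 cells. NUPR1, a small stress-induced chromatin protein, was at 0.92 (adjusted p = 0.0917) in Smad3(RA/KP) cells and 0.77 (adjusted p = 0.167) in wild-type Smad3 cells. In the upstream group of eIF2 kinases, eIF2, eIF2B and eIF2 phosphatase, 0 of 14 genes passed in either line, and 3 in Smad3(RA/KP) cells and 1 in wild-type Smad3 cells had an unadjusted p under 0.05. PPP1R15A, the inducible subunit that lets eIF2 be dephosphorylated, was at 0.56 (adjusted p = 0.142) in Smad3(RA/KP) cells and 0.39 (adjusted p = 0.363) in wild-type Smad3 cells. EIF2S2, the beta subunit of eIF2, was at −0.56 (adjusted p = 0.280) in wild-type Smad3 cells, and EIF2B3, a subunit of its exchange factor, at −0.51 (adjusted p = 0.211) in Smad3(RA/KP) cells.

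None of the 11 further genes of serine, one-carbon and proline synthesis tested passed in either line, and 3 in Smad3(RA/KP) cells and 2 in wild-type Smad3 cells had an unadjusted p under 0.05. SHMT1 was at −0.45 (limma adjusted p = 0.157) in Smad3(RA/KP) cells and −0.58 (adjusted p = 0.0904) in wild-type Smad3 cells. PSPH, the last enzyme of serine synthesis, was at −0.58 (adjusted p = 0.176) in Smad3(RA/KP) cells and −0.67 (adjusted p = 0.145) in wild-type Smad3 cells. All 4 treated libraries were below all 4 untreated ones for SHMT1 (38.5 to 47.9 against 55.0 to 71.8 TPM). The same held for PSPH (36.3 to 53.1 against 59.1 to 74.1 TPM). CBS was at 0.63 (adjusted p = 0.103) in Smad3(RA/KP) cells and was higher with TGF-β in all 4 pairs. Of the 11 genes, 7 lay below 0 in Smad3(RA/KP) cells and 6 in wild-type Smad3 cells. None of 11 amino acid transporters passed either, and 3 and 1 had an unadjusted p under 0.05 in Smad3(RA/KP) and wild-type Smad3 cells. SLC7A1, the arginine and lysine carrier, was at 0.77 (adjusted p = 0.0635) in Smad3(RA/KP) cells and 0.73 (adjusted p = 0.0768) in wild-type Smad3 cells. SLC7A11, the cystine carrier, was at −0.64 (adjusted p = 0.208) in Smad3(RA/KP) cells, and SLC7A5, the leucine carrier, at −0.37 (adjusted p = 0.372) in wild-type Smad3 cells. Of 20 cytosolic aminoacyl-tRNA synthetases, which charge tRNAs and are broadly driven by ATF4, 0 passed, and 3 in Smad3(RA/KP) cells and 1 in wild-type Smad3 cells had an unadjusted p under 0.05. The median was −0.15 in Smad3(RA/KP) cells, where EPRS was at −0.57 (adjusted p = 0.154) and DARS at −0.60 (adjusted p = 0.184). It was 0.13 in wild-type Smad3 cells, where SARS was at 0.38 (adjusted p = 0.261) and TARS at 0.44 (adjusted p = 0.311).

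A last list, of other stress effectors downstream of ATF4, held genes that passed, and these rose. Of its 11 genes tested 2 rose in each line and 0 fell, while 5 in Smad3(RA/KP) cells and 6 in wild-type Smad3 cells had an unadjusted p under 0.05, and 5 of the 11 lay below 0 in each line. Of all genes tested, 3.49% rose and 1.5% fell in Smad3(RA/KP) cells, and 2.94% rose and 1.74% fell in wild-type Smad3 cells. VEGFA, the angiogenic growth factor, rose by 1.76 (limma adjusted p = 0.0018) in Smad3(RA/KP) cells and by 1.28 (adjusted p = 0.0077) in wild-type Smad3 cells. In Smad3(RA/KP) cells BBC3, which encodes the apoptosis inducer PUMA, rose by 0.92 (adjusted p = 0.0497), and it kept its call in 5 of 20 alternatives. In wild-type Smad3 cells BBC3 lay at 22.2 and 39.9 TPM with TGF-β and 17.1 and 19.2 TPM without. HERPUD1, a protein of endoplasmic reticulum quality control, rose by 0.94 in wild-type Smad3 cells (adjusted p = 0.0101). It was at 0.56 (limma adjusted p = 0.0827) in Smad3(RA/KP) cells. For the difference of the responses, 0 genes of this list passed. DDIT4, SQSTM1 and STC2, a secreted glycoprotein, are given after their values were seen. Each was lower with TGF-β in all 4 pairs of libraries. DDIT4 lay at 157 and 208 TPM with TGF-β and 232 and 220 TPM without in Smad3(RA/KP) cells. Wild-type Smad3 cells had 165 and 193 TPM with TGF-β and 201 and 210 TPM without. SQSTM1 lay at 928 and 1129 TPM with TGF-β and 1041 and 1330 TPM without in Smad3(RA/KP) cells. The wild-type line had 856 and 1115 TPM with TGF-β and 1119 and 1358 TPM without. DDIT4 and SQSTM1 did not pass in either line. STC2 lay at 1.87 and 8.54 TPM with TGF-β and 4.99 and 10.9 TPM without in Smad3(RA/KP) cells. In wild-type Smad3 cells it lay at 2.76 and 7.58 TPM with TGF-β and 7.13 and 14.8 TPM without. Treated and untreated libraries of STC2 overlapped in both lines, and it did not pass at −0.69 (limma adjusted p = 0.171) in Smad3(RA/KP) cells or −0.997 (adjusted p = 0.0694) in wild-type Smad3 cells. Over the 5 lists of ATF4 pathway genes together, the eIF2 group left out, 2 of 59 genes tested rose and 0 fell in each line, with a median of −0.05 in Smad3(RA/KP) cells and 0.14 in wild-type Smad3 cells. The medians of all genes tested were −0.10 in Smad3(RA/KP) cells and −0.06 in wild-type Smad3 cells, and the shares of all genes that rose, 3.49% and 2.94%, stand beside this count too.

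Genes of neighbouring stress pathways were read in the same way. Among 17 genes of the ATF6 and XBP1 arms of the endoplasmic reticulum stress response, 0 passed in Smad3(RA/KP) cells, where 1 had an unadjusted p under 0.05, and 1 rose in wild-type Smad3 cells, where 5 had an unadjusted p under 0.05. In wild-type Smad3 cells 15 of the 17 were above 0, with a median of 0.34, and in Smad3(RA/KP) cells 11 were, with a median of 0.17. For all genes tested the medians were −0.06 in wild-type Smad3 cells and −0.10 in Smad3(RA/KP) cells, and 2.94% and 3.49% rose. The gene that rose was HSPA5, the chaperone BiP, at 0.37 (adjusted p = 0.248) in Smad3(RA/KP) cells and 0.74 (adjusted p = 0.0450) in wild-type Smad3 cells, where it kept its call in 9 of 20 alternatives. SYVN1 was the gene of the 17 with an unadjusted p under 0.05 in Smad3(RA/KP) cells, at 0.44 (adjusted p = 0.226). Of 13 genes of amino acid sensing by mTORC1 tested, 0 passed in either line and 1 had an unadjusted p under 0.05 in each. This was NPRL2, a subunit of the GATOR1 complex, at −0.56 (adjusted p = 0.213) in Smad3(RA/KP) cells and −0.63 (adjusted p = 0.213) in wild-type Smad3 cells. Next by p were GATSL3 in Smad3(RA/KP) cells, at 0.48 (adjusted p = 0.241), and GATSL2 in wild-type Smad3 cells, at 0.67 (adjusted p = 0.650). GATSL2 was listed at 0 TPM in replicate 2 of untreated wild-type Smad3 cells.

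Of the genes for the processing and reception of GDF15, FURIN and RET rose in both lines. FURIN, a proprotein convertase that cleaves precursors of the TGF-β superfamily, rose in Smad3(RA/KP) cells by 1.91 (limma adjusted p = 0.00044) and by 1.93 in wild-type Smad3 cells (adjusted p = 0.00039). RET, the kinase through which GFRAL signals, rose by 2.62 (adjusted p = 0.0022) in Smad3(RA/KP) cells and by 2.19 (adjusted p = 0.0048) in wild-type Smad3 cells. GFRAL itself was listed at 0 TPM in all 8 libraries. PCSK6, another proprotein convertase, was at 0.32 (adjusted p = 0.412) in Smad3(RA/KP) cells and 0.49 (adjusted p = 0.301) in wild-type Smad3 cells, and PCSK5 was below the minimum level for the test. KLF4, a zinc finger factor, fell by 1.12 in wild-type Smad3 cells (adjusted p = 0.0449). In Smad3(RA/KP) cells KLF4 was at −0.68 (adjusted p = 0.178) and did not pass. All 4 treated libraries of KLF4, at 6.32 to 13.8 TPM, were below all 4 untreated ones, at 14.6 to 19.5 TPM. CREB3L1, a membrane-bound factor of the endoplasmic reticulum, rose in Smad3(RA/KP) cells by 1.44 (adjusted p = 0.0088). It did not pass in wild-type Smad3 cells, where it lay at 3.78 and 9.90 TPM with TGF-β and 2.44 and 5.25 TPM without. Of the 7 genes of this list that were tested, 3 rose in Smad3(RA/KP) cells, while 2 rose and 1 fell in wild-type Smad3 cells. The shares of all genes tested were 3.49% higher in Smad3(RA/KP) cells, and 2.94% higher and 1.74% lower in wild-type Smad3 cells. For the difference of the responses, 0 genes of this list passed.

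The genes whose profile over the 8 libraries was nearest to that of GDF15 lay outside all of these lists. Nearness was the root mean square difference of log2(TPM + 1) after each gene was centred on its own mean, a description with no test over libraries that share the TGF-β groups. SLCO4A1, an organic anion transporter, was nearest at 0.305, followed by CSF2RA, a receptor chain for GM-CSF, at 0.339, LOC102723721 at 0.374, CABLES1, a cyclin-dependent kinase partner, at 0.375, and SDPR, a caveola protein, at 0.376. SLCO4A1 lay at 3.74 and 6.76 TPM with TGF-β and 15.96 and 12.9 TPM without in Smad3(RA/KP) cells. The wild-type line had 2.89 and 3.01 TPM with TGF-β and 17.2 and 15.4 TPM without. As for GDF15, all 4 treated libraries were below all untreated ones, with replicate 2 of the Smad3(RA/KP) line the closest pair. Of the 9 members, CHAC1 was nearest to GDF15, ranked 291 of 13140 genes at 0.807, and SESN2 was farthest, ranked 12186 at 1.47. The other 7 were ranked from 5827 (DDIT3) to 10933 (ATF4).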

How the data were processed

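RNA sequencing of 8 libraries was used, 2 for each of 4 groups, grouped and numbered by the sample labels. Alignment to GRCh38 was done by the authors with HISAT2, and genes were quantified with StringTie (versions 2.1.0 and 2.0.4 in the submitters' processing notes). The annotation is one not given in the sources used here. Tables as deposited hold 33122 records each, with TPM, FPKM and mean base coverage. TPM was scaled by the authors to a fixed total per library, so that a level is relative to all other RNA. FPKM, normalized by the authors per length and depth, served as an alternative. The deposited coverage was used to recover mapped bases, through its ratio to FPKM. No read counts were used, so no counting intervals are given.

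Records of a symbol were summed. The 13141 genes whose TPM averaged 1 or more were tested on log2(TPM + 1), a pseudocount of 1, with limma 3.58.1 (R 4.3.3). The model held the 4 groups and the replicate number as a block, moderation followed the trend of the variance with the mean, and p-values were adjusted by Benjamini-Hochberg, with a threshold of 0.05 (3 residual and 5.90 prior degrees of freedom). All groups share 1 estimate of the spread. The study describes 2 independent experiments but does not tie the replicate numbers to them, so pairing by number is an assumption, and p-values measure the spread between these libraries. Between same-numbered libraries, deviations from the group means correlated at 0.0484 to 0.332 over the pairs of groups, the lowest between treated and untreated Smad3(RA/KP) cells. The fitting code was tested on simulated data.

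The members, the gene lists and the tests were chosen with earlier results of these data known. Named genes were the 10 members, SMAD3, the TGF-β targets, counted as a check, the 5 profiles nearest to GDF15 and, from each list and line, up to 3 genes with the smallest adjusted p among those that passed, or the 2 genes of smallest p where none did. Genes named for the difference between replicate numbers, and second values given for a gene in the other line, were chosen after their values were seen. Some genes that were looked at are not reported here. Sequences are from RefSeq promoter windows, matched by symbol. Alternatives were other pseudocounts and minimums, FPKM, other scalings, no trend, removal of a GC trend per library (GC known for 94.5% of genes), no block, the most abundant record per symbol, the libraries of a comparison alone, and leaving out each library.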

Additional observations from a re-analysis of the deposited data

How the results depend on the processing

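Of the changes named for single genes, most kept their direction and their side of the threshold. Exceptions are given here or beside the result, though not for every list gene. Their cause was not tested unless the setting itself shows it (fewer genes or libraries). With no replicate block, genes called in the TGF-β comparisons came to 269 in Smad3(RA/KP) cells (655 with it) and 277 in wild-type Smad3 cells (615 with it), no member was called in either, and 1 gene in place of 2 was called between untreated lines. With no minimum TPM, which adds genes to the adjustment, the counts were 242 in Smad3(RA/KP) cells, 287 in wild-type Smad3 cells, 0 for the difference and 0 between treated lines, and no member was called (0 in each line). In wild-type Smad3 cells, removing the GC trend gave 1220 genes and the libraries of the comparison alone 1022. Fitting the libraries of the comparison alone called 0 members in Smad3(RA/KP) cells, 77 genes between untreated lines and 341 between treated lines. No member was called in wild-type Smad3 cells (0) with a pseudocount of 0.1 TPM, median-ratio scaling, quantile normalization or no trend, where the adjusted p of CHAC1 was 0.0529 to 0.0894.

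Genes called for the difference of the responses, 3 in the main fit, were 1 with a pseudocount of 0.1 or a minimum of 5 TPM, and 0 with a pseudocount of 5, FPKM or the GC trend removed. Between untreated lines 1 gene was called with a pseudocount of 5, no trend or the GC trend removed. Between treated lines (1 in the main fit) the count was 3 with a pseudocount of 0.1, 2 with a pseudocount of 5, and 0 with no trend or the GC trend removed.

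Small changes turned in sign. For DDIT3 these were the wild-type response with FPKM (−0.036) and quantile normalization (−0.00078), the Smad3(RA/KP) response with median-ratio scaling (0.073) and the GC trend removed (0.042), and the difference with median-ratio scaling (0.00093). Median-ratio scaling gave 0.0089 for TRIB3 in wild-type Smad3 cells and 0.080 for SHMT2 in Smad3(RA/KP) cells. With the GC trend removed, PSAT1 gave 0.044 for the difference, and ATF4 and CHAC1 −0.022 and −0.13 between treated lines.

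Leaving out 1 library at a time, 161 to 2723 genes were called in Smad3(RA/KP) cells (0 to 3 members) and 113 to 1076 in wild-type Smad3 cells (0 to 2 members), with 0 to 8 for the difference, 0 to 8 between untreated and 0 to 6 between treated lines. A group left with 1 library is assumed to vary like the others. Ranges that crossed 0 in Smad3(RA/KP) cells were those of DDIT3 (−0.37 to 0.32), ASNS (−0.82 to 0.049), CHAC1 (−0.75 to 0.013), PHGDH (−0.11 to 0.38) and SHMT2 (−0.21 to 0.18). In wild-type Smad3 cells they were DDIT3 (−0.22 to 0.23), TRIB3 (−0.13 to 0.012), ASNS (−0.48 to 0.29) and SHMT2 (−0.0027 to 0.13). For the difference they were ATF4 (−0.047 to 0.38), DDIT3 (−0.38 to 0.32), ASNS (−0.72 to 0.15), PSAT1 (−0.48 to 0.18) and SHMT2 (−0.27 to 0.11). Between untreated lines they were GDF15 (−0.73 to 0.23), ATF4 (−0.27 to 0.15), DDIT3 (−0.44 to 0.25) and ASNS (−0.76 to 0.11). Between treated lines they were GDF15 (−0.11 to 0.72), ATF4 (−0.11 to 0.32), DDIT3 (−0.28 to 0.020), TRIB3 (−0.11 to 0.061), CHAC1 (−0.30 to 0.46) and PHGDH (−0.14 to 0.35). Between replicate numbers they were GDF15 (−0.26 to 0.19) and DDIT3 (−0.13 to 0.15). The change of GDF15 with TGF-β kept its sign in all alternatives, at −1.47 to −2.43 in Smad3(RA/KP) cells and −2.33 to −2.59 in wild-type Smad3 cells. With 2 libraries a group and no read counts, members at about 10 TPM, CHAC1 and SESN2, rest on the thinnest coverage.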
